A study of Mus musculus with 75 samples.

Results

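Genes that write, erase and read DNA methylation were followed through nuclear RNA of sorted nucleus accumbens nuclei, the striatal region where cocaine acts on dopamine signalling. The set held 9 genes of the 55401 gene identifiers in the deposited tables, taken by symbol with the version suffix of the identifier removed: the methyltransferase genes Dnmt1, Dnmt3a and Dnmt3b, the dioxygenase genes Tet1, Tet2 and Tet3, the demethylation cofactor gene Gadd45b, and the methyl-CpG binding genes Mbd1 and Mbd2. All 9 were found, and all 9 passed the filter on low counts in every fit. The question put to them was whether their nuclear RNA differed with a cocaine challenge, with a cocaine history, or between the 2 classes of medium spiny neuron, the projection neurons of this region.

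All animals were male mice carrying the Cre-dependent reporter LSL-eGFP::L10a together with D1-Cre or D2-Cre, so that nuclei were selected by the activity of a dopamine receptor driver and not by the receptor protein. In each line the SC group had saline for 10 days and cocaine (20 mg/kg, intraperitoneal) as its challenge after 30 days of withdrawal, the CS group had cocaine for 10 days and a saline challenge, the CC group had cocaine at both times, and the SS group had saline at both times. Tissue was taken 1 h after the challenge. The D1 line gave 9 SC, 8 CS, 10 CC and 10 SS libraries, and the D2 line 9 SC, 10 CS, 10 CC and 9 SS libraries, 75 in all. The labels do not say whether a library came from 1 mouse or a pool, so p-values measure the spread between libraries, which may in part be technical.

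In mammals, the enzymes of Dnmt3a and Dnmt3b place methyl groups on unmethylated cytosines, and that of Dnmt1 copies the pattern onto the new strand after replication. TET enzymes oxidise 5-methylcytosine, and the oxidised bases are removed by the glycosylase Tdg and base excision repair or lost by dilution. Neurons no longer divide, accumulate methylation outside CpG sites through Dnmt3a, and carry much 5-hydroxymethylcytosine. Mbd1 and Mbd2 bind methylated CpG, Mbd2 as part of the NuRD repressor complex, and Gadd45b is an activity-induced gene linked to demethylation in mouse neurons.

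The 9 genes lie on 7 chromosomes (mm10). Dnmt3a spans chromosome 12 from 3806007 to 3914443 on the plus strand, Dnmt3b chromosome 2 from 153649450 to 153687730 (plus) and Dnmt1 chromosome 9 from 20907209 to 20959888 (minus). Tet1 spans chromosome 10 from 62804570 to 62908996, Tet2 chromosome 3 from 133463679 to 133545139 and Tet3 chromosome 6 from 83362373 to 83459084, all on the minus strand. Gadd45b is the shortest at 2132 bases (chromosome 10, 80930073 to 80932204, plus), against 15128 for Mbd1 and 57943 for Mbd2, which lie on the plus strand of chromosome 18. Antisense genes overlap Dnmt3a (Dnmt3aos), Dnmt3b (Dnmt3bos), Tet2 (Gm42567) and Tet3 (B230319C09Rik), and same-strand genes overlap Dnmt1, Tet1 and Tet3. The strand setting of the counting is not given in the sources used here, so the values of these genes could include reads of their partners and are uncertain to that extent.

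The total count per library ran from 19825 to 34870414, with a median of 14893119, and 71 of the 75 libraries held 1000000 counts or more. A rule on depth, genes detected, receptor ratio and correlation with the other libraries failed 17 libraries: 3 of D1_SC, 2 of D1_CS, 3 of D1_CC, 2 of D2_SC, 5 of D2_CS, 2 of D2_CC and 0 of either SS group. Drd2 (the D2 receptor gene) exceeded Drd1 in 16 of the 37 libraries that carry the D1 label (6 of 9 D1_SC, 4 of 8 D1_CS, 4 of 10 D1_CC and 2 of 10 D1_SS), and genes beside the receptor genes put 4 of them (D1_CC 4, 9 and 10 and D1_CS 4) on the D2 side. The receptor counts were not corrected for gene length or for the background described next, so by themselves they do not show a wrong sort. Reads also lay on 1738 olfactory and vomeronasal receptor genes, which neurons of this region do not express. Spread evenly over all gene spans, a density at their level would account for a share of each library called background here. Its mean ± SD was 23.4% ± 18 in D1_SC, 57.1% ± 19.6 in D1_CS, 46.0% ± 21.7 in D1_CC and 46.2% ± 11.9 in D1_SS. In the D2 line it was 34.5% ± 20.2 in D2_SC, 35.0% ± 20.3 in D2_CS, 41.0% ± 20.1 in D2_CC and 44.2% ± 17.3 in D2_SS.

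The promoters show how much CpG, the site these proteins act on, lies before listed start sites of the genes. RefSeq promoters (GRCm38.p6) were used for 7 of the 9 genes. Mbd1 and Mbd2 were left out of this part, which is no sign that RefSeq lacks promoters for them. Printed 5′ to 3′ on the strand of the gene are 6 sequences of 250 bases that end at the start site. Every CpG is in capitals. The 6 sequences come from the genes with called changes other than Mbd2, and from Dnmt3b as the gene with the lowest read density. Of Dnmt3a they cover 2 of the 3 listed starts. Their positions are chr12:3806730-3806979 and chr12:3891494-3891743 for Dnmt3a, chr3:133544391-133544640 for Tet2, chr6:83441679-83441928 for Tet3, chr10:80929841-80930090 for Gadd45b and chr2:153649199-153649448 for Dnmt3b.
Dnmt3a, upstream start: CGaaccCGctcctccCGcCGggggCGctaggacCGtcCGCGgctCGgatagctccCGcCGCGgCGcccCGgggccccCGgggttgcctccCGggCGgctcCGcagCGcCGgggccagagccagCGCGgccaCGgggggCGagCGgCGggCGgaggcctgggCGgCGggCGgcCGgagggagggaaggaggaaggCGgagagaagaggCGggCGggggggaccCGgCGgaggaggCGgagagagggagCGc
Dnmt3a, internal start: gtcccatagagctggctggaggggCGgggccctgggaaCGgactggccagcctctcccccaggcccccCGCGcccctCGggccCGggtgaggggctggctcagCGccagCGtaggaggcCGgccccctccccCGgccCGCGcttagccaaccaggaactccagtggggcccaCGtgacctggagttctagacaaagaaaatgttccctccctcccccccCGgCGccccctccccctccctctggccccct
Tet2: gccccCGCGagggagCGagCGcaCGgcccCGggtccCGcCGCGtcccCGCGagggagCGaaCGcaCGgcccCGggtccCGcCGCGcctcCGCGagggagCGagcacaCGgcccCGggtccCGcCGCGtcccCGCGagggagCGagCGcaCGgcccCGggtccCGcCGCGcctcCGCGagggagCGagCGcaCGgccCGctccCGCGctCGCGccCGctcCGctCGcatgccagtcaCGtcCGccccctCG
Tet3: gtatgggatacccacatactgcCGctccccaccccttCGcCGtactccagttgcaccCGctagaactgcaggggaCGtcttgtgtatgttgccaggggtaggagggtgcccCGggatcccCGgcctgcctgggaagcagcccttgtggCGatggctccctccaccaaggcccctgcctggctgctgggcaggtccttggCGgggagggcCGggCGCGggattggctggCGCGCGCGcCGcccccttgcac
Gadd45b: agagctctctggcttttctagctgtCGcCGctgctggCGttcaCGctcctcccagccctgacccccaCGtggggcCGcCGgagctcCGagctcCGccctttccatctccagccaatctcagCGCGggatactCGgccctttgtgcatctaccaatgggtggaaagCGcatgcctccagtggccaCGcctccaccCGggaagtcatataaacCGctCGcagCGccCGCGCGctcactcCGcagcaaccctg
Dnmt3b: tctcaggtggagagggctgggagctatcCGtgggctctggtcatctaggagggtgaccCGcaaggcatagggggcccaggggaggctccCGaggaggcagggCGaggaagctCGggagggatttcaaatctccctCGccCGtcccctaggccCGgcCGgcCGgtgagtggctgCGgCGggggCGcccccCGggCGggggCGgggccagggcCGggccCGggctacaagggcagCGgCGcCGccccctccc

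The Tet2 promoter held 51 CpG sites, a number reached by 0.0670% of the 32851 promoters of this length, whose median is 6. Dnmt3a had 38 before its upstream start and 15 before the internal start. Both Dnmt3a windows and those of Tet2 and Tet3 lie inside the gene spans given above, so they are not sequence before the gene. Gadd45b had 22, Dnmt3b 21 and Tet3 17 sites. The E-box CACGTG stood in the Gadd45b promoter and before the internal Dnmt3a start, and in 6.02% of all promoters. The cAMP response element TGACGTCA, its shorter form TGACG (which the full site contains) and the AP-1 site TGANTCA, searched on both strands, stood in none of the sequences of the 7 genes, against 1.55%, 17.8% and 6.75% of all promoters. These matches describe letters in the window and say nothing of binding.

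Levels per length separated 8 expressed genes from Dnmt3b. Counts were divided by the full gene span, introns included, as in the deposited FPKM, and the background density of the library was subtracted. In the 71 libraries with 1000000 counts or more, the median FPKM above background was 1.46 for Mbd1, 1.02 for Dnmt3a, 0.904 for Mbd2, 0.827 for Tet2, 0.795 for Gadd45b, 0.601 for Tet3, 0.418 for Dnmt1, 0.260 for Tet1 and 0.0208 for Dnmt3b. Not every neighbour in this order was set apart. Mbd1 lay above Dnmt3a in 56 of 71 libraries, Dnmt3a above Mbd2 in 45 and Mbd2 above Tet2 in 55, while Tet2 lay above Gadd45b in only 37 and Gadd45b above Tet3 in 41. The lower end was steadier: Tet3 lay above Dnmt1 in 64, Dnmt1 above Tet1 in 58 and Tet1 above Dnmt3b in 69 of 71.

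**Figure D1:**
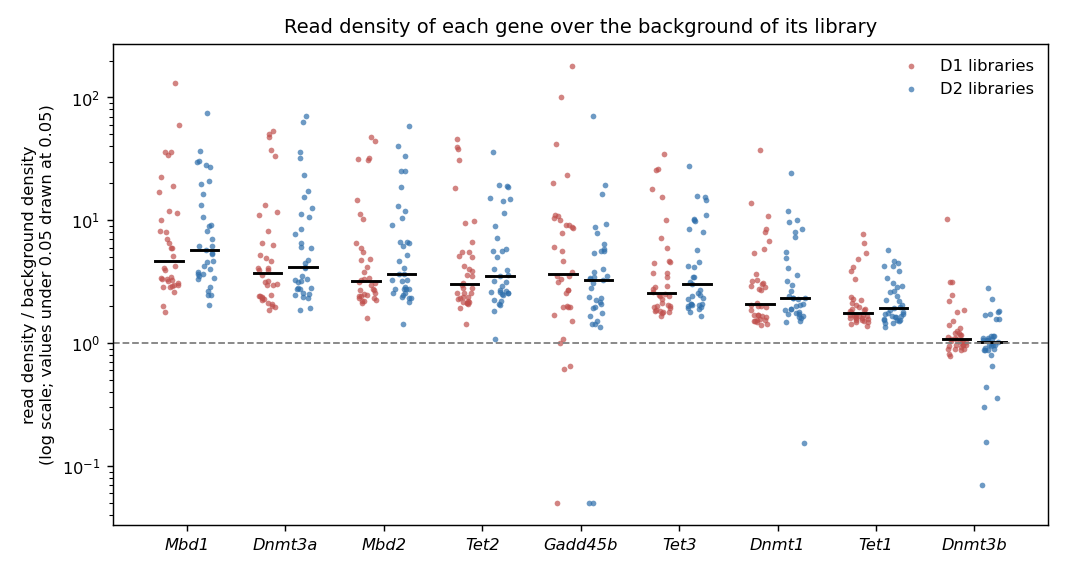
Read density of each gene divided by the background density of the same library, on a log scale, for the 71 libraries with 1000000 counts or more (D1 and D2 libraries side by side, black bars the medians, dashed line the background). Dnmt3b straddles the dashed line at a median of 1.06 times background, while Mbd1 has a median of 5.46 and reaches 131.

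The plot of density over background shows the levels as multiples of the background, where Gadd45b (median 3.39) comes before Mbd2. Mbd1 stood at a median of 5.46 times background (1.81 to 131), Dnmt3a at 3.95 (1.85 to 71.2) and Mbd2 at 3.33 (1.43 to 59.1). Tet1 was low but above background in 71 of 71 libraries, at a median of 1.81 times (1.36 to 7.80). Dnmt3b, known for its role in the early embryo, had a median of 1.06 times background (0.0701 to 10.3) and lay above it in 42 of 71 libraries. The background would account for a median of 94.6% of the Dnmt3b counts, 55.1% of the Tet1 counts, 43.3% of the Dnmt1 counts and 18.3% of the Mbd1 counts. The counts behind Dnmt3b had a median of 184 per library.

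In the 16 of these 71 libraries with a background share under 20% the genes stood at higher multiples of the background. These libraries were picked by the same background that divides the counts, so higher multiples are in part built in. Dnmt3a had a median of 32.7 times background there (11.2 to 71.2), Mbd1 30.3, Mbd2 28.1, Tet2 18.6, Tet3 15, Gadd45b 12.9, Dnmt1 8.45 and Tet1 4.04. Dnmt3b had a median of 1.65 and ran from 0.158 to 10.3, so that its range crossed the background even in these libraries. The order changed at the top, where Dnmt3a led in these 16 libraries and Mbd1 in all 71.

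Across libraries the level of most of these genes moved with the background share. Over the 71 libraries, Tet1 in log2 CPM (counts per 1000000 of the library total) had a Pearson correlation of 0.861 with the share (Spearman 0.853; permutation p = 1e-05 for both, the least that this number of permutations allows; adjusted p = 1.8e-05 and 1.5e-05 over 9 genes). It was 0.859 within D1 libraries, 0.866 within D2 libraries and 0.845 without the 2 farthest libraries. Dnmt3b rose with the share too (Pearson 0.689, Spearman 0.782, adjusted permutation p = 1.8e-05 and 1.5e-05; 0.769 in D1, 0.718 in D2, and 0.655 without the 2 farthest). The background would account for a median of 94.6% of the Dnmt3b counts and 55.1% of the Tet1 counts. For both genes a rise with the share is therefore largely built into the measures. Their permutation p-values are no evidence of a relation beyond that.

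Dnmt3a, Mbd1 and Mbd2 had the opposite relation. For Dnmt3a the Pearson correlation was -0.773 (Spearman -0.780, adjusted permutation p = 1.8e-05 and 1.5e-05), with -0.774 in D1, -0.781 in D2 and -0.770 without the 2 farthest libraries. For Mbd1 it was -0.797 (Spearman -0.847, -0.775 without the 2 farthest) and for Mbd2 -0.629 (Spearman -0.732, -0.623 without them), with the same adjusted permutation p. Tet2 had -0.433 (Spearman -0.604; adjusted permutation p = 3e-05 and 1.5e-05; -0.414 without the 2 farthest), with -0.798 in D1 and -0.262 in D2. Tet3 had a weaker one (Pearson -0.296, Spearman -0.344, adjusted permutation p = 0.0150 and 0.00447; -0.287 without them), with -0.442 in D1 and -0.219 in D2. Dnmt1 (Pearson 0.116, Spearman 0.0607, adjusted permutation p = 0.366 and 0.614) and Gadd45b (Pearson -0.134 and Spearman -0.230 over 68 libraries with a count, adjusted permutation p = 0.311 and 0.0667) did not pass. For Gadd45b the lines had opposite signs, with a Pearson correlation of -0.509 in 35 D1 libraries and 0.213 in 33 D2 libraries. The pooled value thus does not describe either line. The same library total enters both measures, so a fall with the share is in part built in for genes well above background. The permutation p-values of these falls are no evidence of a relation beyond that.

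**Figure D2:**
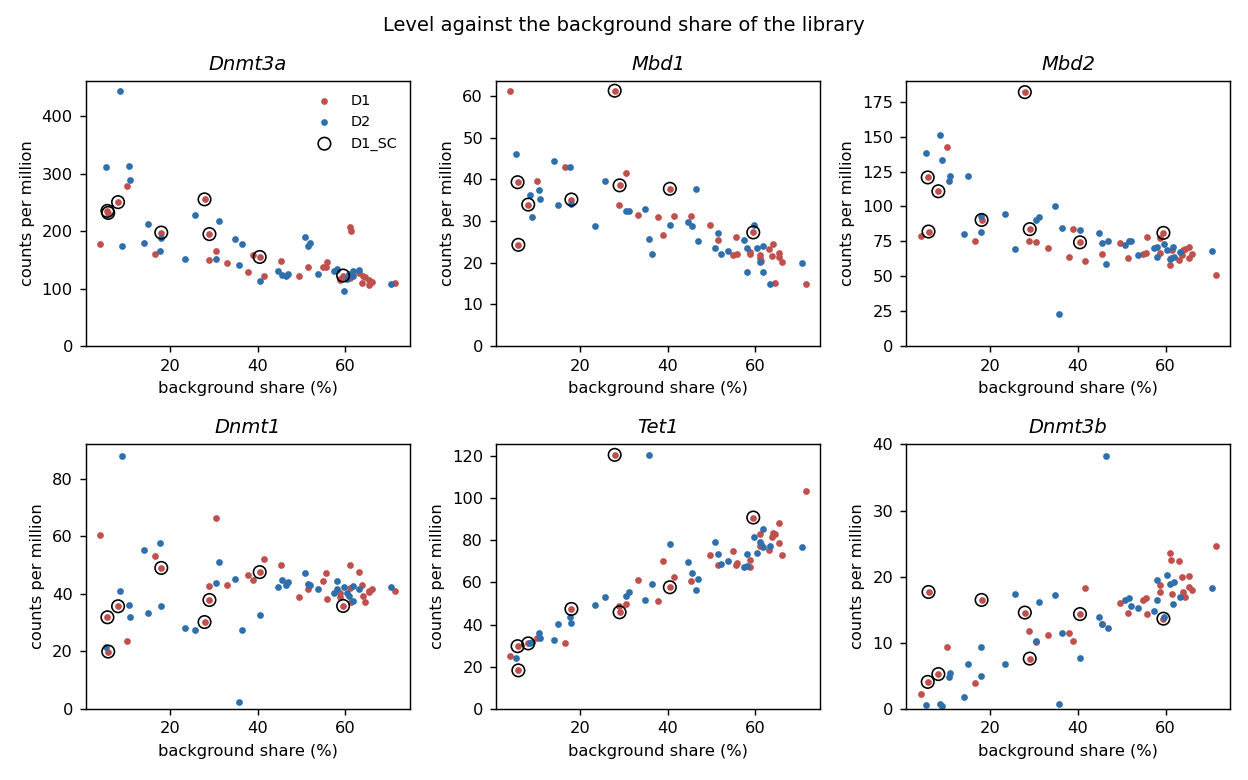
CPM of 6 of the genes (y axis) against the background share in percent (x axis), 1 point a library for 71 libraries, D1 in red, D2 in blue and D1_SC circled. Dnmt3a, Mbd1 and Mbd2 fall and Tet1 and Dnmt3b climb along the axis, and 5 of the 8 D1_SC libraries shown lie at 27.9% or less.

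In D1 nuclei a first cocaine challenge went with higher nuclear RNA of a writer, both TET genes other than Tet1, and a reader. For D1 SC minus SS, 4 of the 9 genes rose and none fell in edgeR's quasi-likelihood test (Benjamini-Hochberg adjustment over all genes), where 9.7% of all 37721 genes tested rose and 1.64% fell. The 9 had a median log2 change of 0.81, against -0.07 over all genes. The filter on low counts kept genes at background level, Dnmt3b among them. All genes are thus not a set of like level, here or for the partner genes below. In these bulk libraries, fewer cells of a type and less RNA per cell cannot be told apart.

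Mbd2, the NuRD-linked reader, changed most. It stood at 74.3 CPM at the lowest, a median of 90.3 and 203 at the highest in D1_SC, against 57.8, 69.4 and 83.6 CPM in D1_SS. The groups overlapped between 74.3 and 83.6 CPM, and 9 of 9 SC libraries lay above the SS mean. The mean was 114 ± 47.0 CPM in D1_SC and 69.5 ± 8.15 in D1_SS (SD, n = 9 and 10), with a fitted log2 change of 1.37 ± 0.29 (SE, adjusted p = 0.00404 in edgeR). The highest values came from D1_SC 5 (203 CPM, 132 counts) and D1_SC 1 (182 CPM, 537 counts), both among the libraries that failed on depth. Without the failing libraries Mbd2 changed by 1.06 (adjusted p = 0.0345). A stricter rule chosen after seeing the data, which in this line also leaves out D1_SC 4, gave 0.69 for Mbd2 (adjusted p = 0.304) and called none of all genes (5436 at an unadjusted p under 0.05).

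Dnmt3a, the de novo methyltransferase of mature neurons, ran from 123 to 255 CPM in D1_SC with a median of 198, and from 116 to 207 in D1_SS with a median of 141. The ranges overlapped widely, and 7 of 9 SC libraries lay above the SS mean. Its mean was 197 ± 51.0 CPM in D1_SC and 149 ± 31.9 in D1_SS, and the fitted log2 change was 1.08 ± 0.29 (SE, adjusted p = 0.0144). The other writers did not pass. Dnmt1, the maintenance enzyme gene, averaged 32.1 ± 14.4 CPM in D1_SC and 43.6 ± 4.86 in D1_SS, with a fitted change of 0.12 (adjusted p = 0.770), and Dnmt3b averaged 10.4 ± 6.28 CPM in D1_SC and 15.3 ± 4.27 in D1_SS, with a fitted change of 0.00 (adjusted p = 0.995).

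Of the erasers, Tet3 ran from 61.4 to 154 CPM in D1_SC with a median of 110, and from 77.0 to 114 in D1_SS with a median of 91.8. Tet2 ran from 35.3 to 155 CPM in D1_SC with a median of 106, and from 79.4 to 110 in D1_SS with a median of 95.0. In both genes the SC libraries enclosed the whole SS range, and 5 of 9 (Tet3) and 6 of 9 (Tet2) lay above the SS mean. Tet3 averaged 106 ± 29.5 CPM in D1_SC and 93.2 ± 11.1 in D1_SS, with a fitted log2 change of 0.81 ± 0.22 (adjusted p = 0.0144 in edgeR). Tet2 averaged 107 ± 37.0 CPM in D1_SC and 95.0 ± 9.81 in D1_SS, with a fitted change of 0.83 ± 0.27 (adjusted p = 0.0359). Tet1 averaged 51.8 ± 33.8 CPM in D1_SC and 66.7 ± 11 in D1_SS, and its fitted change was 0.11 ± 0.19 (adjusted p = 0.698).

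The fitted changes are larger than the ratios of mean CPM, and for Tet1, Dnmt1, Dnmt3b and Gadd45b the mean CPM was lower in D1_SC. The fit scales libraries by TMM factors, which ran from 0.537 to 1.11 in D1_SC and from 0.974 to 1.41 in D1_SS. With RLE scaling in place of TMM the median log2 change of all genes moved to -0.25. The changes of Mbd2, Dnmt3a, Tet2 and Tet3 then became 1.20, 0.83, 0.58 and 0.57 and still passed, while Dnmt1, Tet1 and Dnmt3b, not called, stood at -0.11, -0.05 and -0.18. DESeq2 called these 4 and Mbd1, where it called 14.4% of the genes with an adjusted p, and its split was 3430 higher and 2218 lower against 3659 and 618 in edgeR. Gadd45b (0.48 ± 0.53, adjusted p = 0.537) and Mbd1 (0.91 ± 0.34, adjusted p = 0.0663) did not pass in edgeR. Mbd1 ran from 10.7 to 61.3 CPM in D1_SC with a median of 35.2, and from 20.5 to 33.9 in D1_SS with a median of 27.9, the SC range again enclosing the other.

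**Figure D3:**
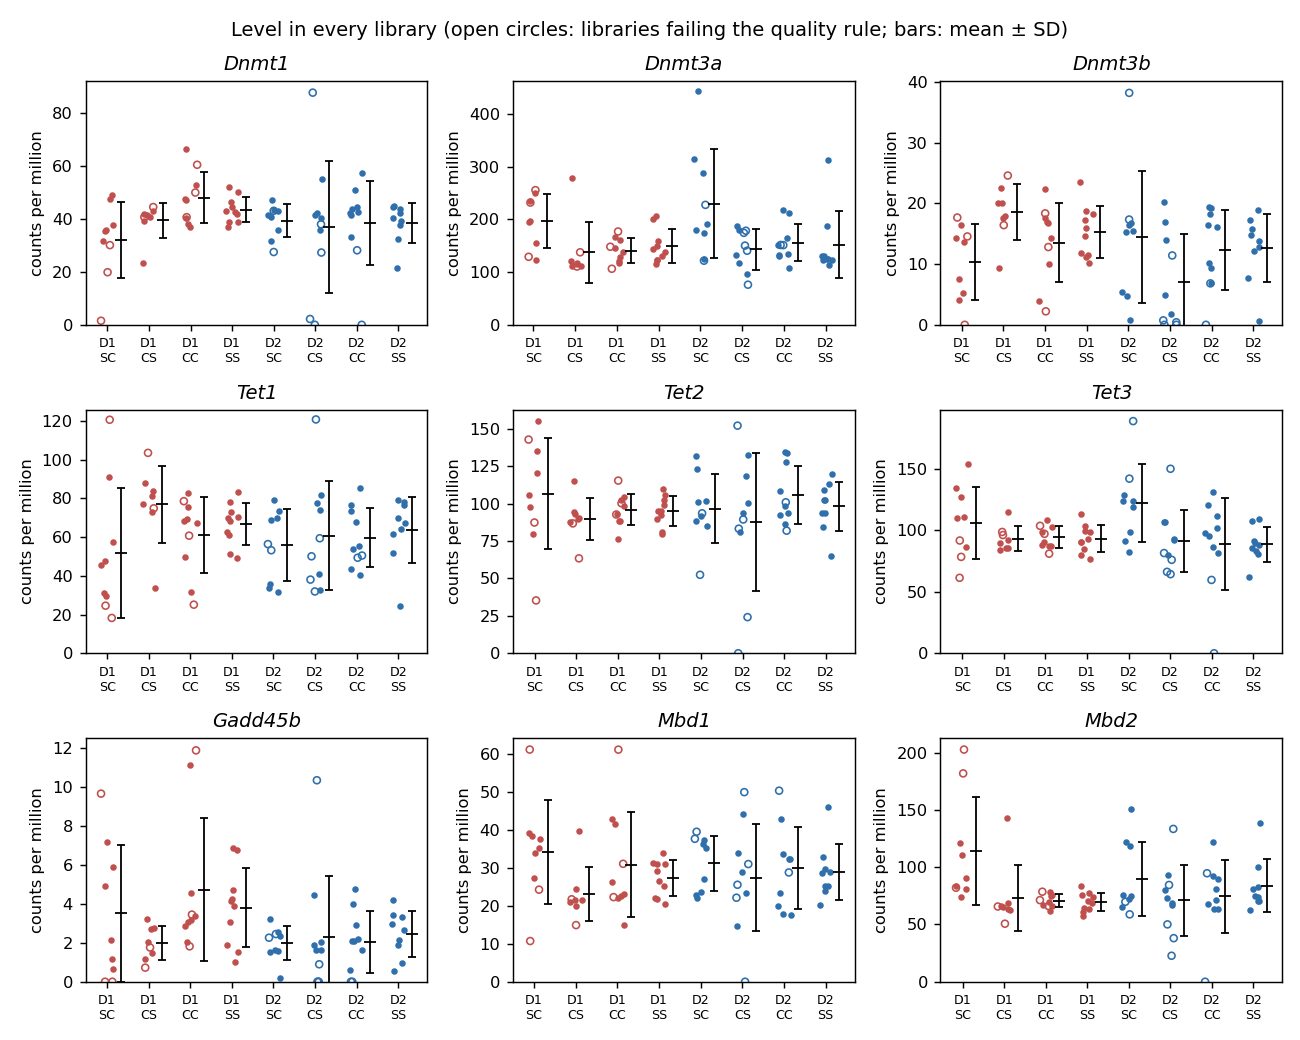
CPM of each gene in all 75 libraries by group, 1 panel a gene, with open circles for libraries that failed the quality rule and bars for the mean ± SD. Mbd2 in D1_SC reaches 203 CPM against at most 83.6 in D1_SS, and the groups of every panel overlap.

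The plot of levels by group shows each library behind these values. In it the D1_SC points spread more widely than the D1_SS points for 9 of the 9 genes by SD of CPM, and Dnmt1, Dnmt3b and Gadd45b have D1_SC libraries near or at 0 (1.54 CPM of Dnmt1 in the lowest). Gadd45b was at 0 counts in D1_SC 1, which held 2953172 counts in total, and in D1_SC 5, which held 651445.

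The lower background of D1_SC moved with these rises, and the fits that took it into account gave smaller changes. With the background subtracted from each count, Mbd2 remained at 0.90 (adjusted p = 0.0386), while Dnmt3a (0.50, adjusted p = 0.255), Tet3 (0.44, adjusted p = 0.215) and Tet2 (0.36, adjusted p = 0.416) did not pass in edgeR. With the background share as a covariate none passed: Mbd2 stood at 0.65 (adjusted p = 0.145), Tet3 at 0.27 (adjusted p = 0.298), Dnmt3a at 0.25 (adjusted p = 0.452) and Tet2 at 0.14 (adjusted p = 0.706). Of all genes, 2 passed that fit. Within D1 libraries that passed the quality rule, with Mbd2, Dnmt3a, Tet2 and Tet3 still called, the share was 26.8% ± 20.7 in 6 D1_SC and 46.2% ± 11.9 in 10 D1_SS libraries. A cocaine response and the lower background of D1_SC cannot be told apart for the 4 genes.

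**Figure D4:**
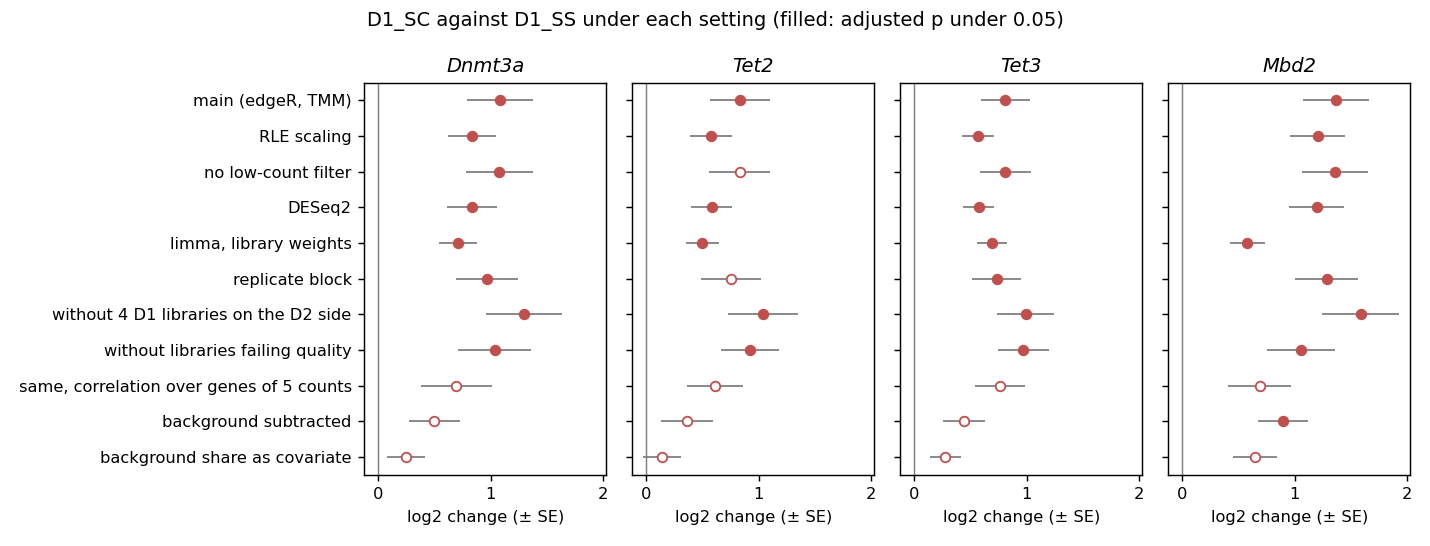
Fitted log2 change (± SE) of the 4 called genes in D1 SC minus SS under each setting, with filled points where the adjusted p is under 0.05. All points lie above 0, and the points for the background as covariate (0.25, 0.14, 0.27 and 0.65 for Dnmt3a, Tet2, Tet3 and Mbd2) are open in all 4 panels.

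The plot of settings shows that the direction was the same under all 10 alternatives for the 4 genes. Their calls were not: Mbd2 passed in 8, Dnmt3a and Tet3 in 7 each and Tet2 in 5 of 10. Leaving out 1 of the 37 D1 libraries at a time kept Mbd2 called in 37 of 37 fits (0.96 to 1.47), Dnmt3a and Tet3 in 31 and Tet2 in 25. Mbd2 alone remained called without D1_SC 2, 4, 5 or 9, without D1_CS 5 or without D1_SS 3, and Dnmt3a had 0.72 (adjusted p = 0.145) without D1_SC 2. D1_SC 2, 4 and 9 held background shares of 8.10%, 5.67% and 5.85%.

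Markers of neurons and of glia moved in the same comparison. Of 8 medium spiny neuron markers 6 rose (median log2 change 1.11), with a summed level of 2393 to 6589 CPM in D1_SC and 2167 to 3733 in D1_SS. Of 6 oligodendrocyte markers 5 rose, with summed levels of 98.1 to 919 CPM in D1_SC and 140 to 253 in D1_SS. Astrocyte markers had 1 of 6 higher (104 to 733 CPM in D1_SC, 197 to 381 in D1_SS), glutamatergic neuron markers 1 of 5 (21.6 to 271 CPM in D1_SC, 73.8 to 154 in D1_SS), and microglia markers 1 of 5 (56.8 to 156 CPM in D1_SC, 112 to 151 in D1_SS). The D2 neuron markers had 1 of 6 higher, Drd2 itself at 1.56 ± 0.49 (adjusted p = 0.0332; summed markers 117 to 530 CPM in D1_SC, 92.8 to 759 in D1_SS), and the D1 neuron markers 0 of 6 (165 to 875 CPM in D1_SC, 133 to 902 in D1_SS). Choroid plexus markers had 1 of 2 lower, and endothelium, oligodendrocyte precursor and interneuron markers had none called. No marker was at 0 in all libraries of either group, and the part of other cells in the rises was not tested.

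Some partner genes of the pathway rose in D1 SC minus SS. Of 48 other genes of DNA methylation 12 rose and 0 fell, where 9.7% of all genes rose, and their median log2 change was 0.40, against -0.07 over all genes. Of the 48, 36 had a change above 0 and 12 one below 0, and the 7 writer partners had 3 above and 4 below (median -0.07). The glycosylase gene Tdg rose by 2.06 ± 0.48 and its repair partners Parp1, Smug1 and Polb by 0.91, 0.90 and 0.90. Among 7 other methyl-CpG readers and their relatives 3 rose: Mbd6 (2.44 ± 0.44), Zbtb4 (1.27) and Mbd5 (1.01). Of 11 corepressor subunits Gatad2a (1.47) and Gatad2b (1.13), both NuRD components, rose. Ogt, whose glycosyltransferase binds TET proteins (1.87 ± 0.45), Cxxc4 (1.09) and Uhrf2 (1.02) were the only members called in their lists. Leaving out 1 D1 library gave 2 to 16 of the 48 (2 without D1_SC 2, 4, 5 or 9), and none passed with the background as covariate.

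In D2 nuclei the same challenge called none of the 9 genes. For D2 SC minus SS edgeR called 0.0% of 36090 genes (1914 at an unadjusted p under 0.05). Of the 9, DESeq2 called 0, and limma with library weights 2, both higher, where limma called 13.6% of all genes (1829 higher and 3063 lower). Dnmt3a and Tet3 had an unadjusted p under 0.05. Dnmt3a ran from 122 to 444 CPM in D2_SC with a median of 190, and from 113 to 312 in D2_SS with a median of 126, with a log2 change of 0.85 ± 0.34 (adjusted p = 0.928). Tet3 ran from 82.6 to 189 CPM in D2_SC with a median of 124, and from 61.7 to 109 in D2_SS with a median of 88.3, with a change of 0.68 ± 0.25 (adjusted p = 0.848) and 8 of 9 libraries above the SS mean. Both genes overlapped between the groups, and D2_SC 3, 4 and 7 had background shares of 8.52%, 10.8% and 10.6%. Mbd2, the leading gene in D1, had 0.37 ± 0.34 in D2 (adjusted p = 0.988).

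The difference between the lines was tested directly. No gene of the 9 passed for the D1 minus D2 difference in the SC change (0.028% of 39250 genes passed, and 1 of the 9 had an unadjusted p under 0.05; DESeq2 and limma 0 of 9). Mbd2 came nearest, at 0.96 ± 0.48 (adjusted p = 0.959), followed by Tet2 at 0.55 ± 0.41 (adjusted p = 0.967), while Dnmt3a had 0.18 ± 0.48 and Tet3 0.09 ± 0.35. The calls in D1 and their absence in D2 are thus not shown to differ.

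**Figure D5:**
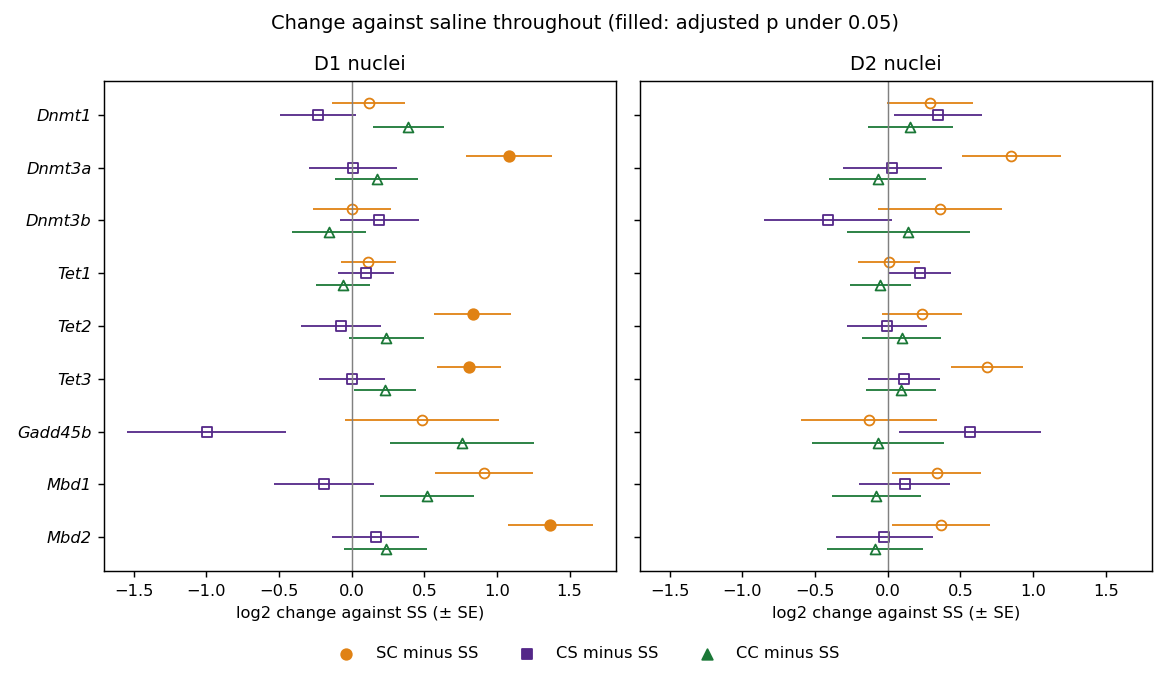
Fitted log2 changes (± SE) against SS for the 9 genes in D1 nuclei (left) and D2 nuclei (right), with circles for SC, squares for CS and triangles for CC, filled where the adjusted p is under 0.05. Filled points stand only for Mbd2, Dnmt3a, Tet2 and Tet3 in D1 SC, at 1.37, 1.08, 0.83 and 0.81.

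The plot of changes against SS sets these values beside those of the other groups. A history of cocaine without a challenge, CS minus SS, called none of the 9 genes in the edgeR fit. In D1 no gene passed (0.0% of all genes; 1204 genes and 0 of the 9 at an unadjusted p under 0.05; DESeq2 0 of 9). Dnmt3a averaged 138 ± 57.8 CPM in D1_CS and 149 ± 31.9 in D1_SS (0.01 ± 0.30), and Mbd2 73.2 ± 28.7 CPM in D1_CS and 69.5 ± 8.15 in D1_SS (0.17 ± 0.30). Gadd45b had the largest fitted change of the 9, -1.0 ± 0.55 (adjusted p = 0.9999 in edgeR), with a mean of 1.99 ± 0.867 CPM in D1_CS and 3.81 ± 2.01 in D1_SS, and 0 of 8 CS libraries above the SS mean. D1_CS 3, the CS library with the lowest background at 10.1%, held 279 CPM of Dnmt3a and 143 of Mbd2, against 138 CPM of Dnmt3a and 68.6 of Mbd2 in the next library. Limma with library weights called 6 of the 9, 1 higher and 5 lower (Gadd45b among these), where it called 43.9% of all genes, 7304 higher and 9243 lower. In D2 CS minus SS no gene passed either (0.0859% of all genes called; 0 of the 9 at an unadjusted p under 0.05; DESeq2 0 of 9, and limma 1 of 9 where it called 11.5% of all genes), with changes from -0.41 (Dnmt3b) to 0.57 (Gadd45b).

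Challenge after a history, CC minus SS, also called none in D1 (0.0% of all genes; 2627 genes and 0 of the 9 at an unadjusted p under 0.05; DESeq2 and limma 0 of 9). Changes ran from -0.16 for Dnmt3b to 0.76 ± 0.49 for Gadd45b. Mbd2 averaged 70.8 ± 5.79 CPM in D1_CC and 69.5 ± 8.15 in D1_SS (0.23 ± 0.28). In D2 CC minus SS none passed (0.0% of all genes; 380 genes and 0 of the 9 at an unadjusted p under 0.05; DESeq2 0 of 9, and limma 1 of 9 where it called 23.3% of all genes), and all 9 changes lay between -0.09 and 0.16.

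The CC group then stood below SC in the D1 line for the leading writer and reader. For D1 CC minus SC, 2 of the 9 genes fell and 0 rose, where 7.86% of all genes fell and 2.62% rose (990 higher and 2965 lower; 1449 and 2605 with RLE scaling). Mbd2 ran from 61.5 to 78.6 CPM in D1_CC with a median of 70.3, and from 74.3 to 203 in D1_SC with a median of 90.3. It fell by 1.13 on the log2 scale (SE 0.29, adjusted p = 0.0113), with 0 of 10 CC libraries above the SC mean. Dnmt3a ran from 106 to 177 CPM in D1_CC with a median of 142, and from 123 to 255 in D1_SC with a median of 198. It fell by 0.91 (SE 0.29, adjusted p = 0.0404), also with 0 of 10 above the SC mean, and the groups overlapped for both genes. Tet3 (-0.58 ± 0.22, adjusted p = 0.0733) and Tet2 (-0.60 ± 0.27, adjusted p = 0.117) did not pass.

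This comparison shares its 9 SC libraries with SC minus SS, so the calls on Mbd2 and Dnmt3a rest on the same low-background group. The background share was 46.0% ± 21.7 in D1_CC and 23.4% ± 18 in D1_SC. With the share as covariate Mbd2 had -0.49 (adjusted p = 0.0701) and Dnmt3a -0.25 (adjusted p = 0.305), and without failing libraries Mbd2 had -0.96 (adjusted p = 0.0776) and Dnmt3a -1.01 (adjusted p = 0.0829). With the background subtracted Mbd2 fell by 0.81 (adjusted p = 0.0324). Without D1_SC 2, 4 or 5 none of the 9 was called. Of the 48 partner genes 4 rose (Pcna, Apex1, Zbtb33 and Ahcy) and 6 fell (Tdg, Mbd6, Mbd5, Cxxc4, Ogt and Gatad2a), with Mbd6 at -2.33 ± 0.44. With the background share as covariate 21 of the 48 were called, 19 higher and 2 lower, where that fit called 18.7% of all genes, 4684 higher and 2361 lower. Medium spiny neuron markers had 2 of 8 lower, oligodendrocyte markers 2 of 6 lower, and D2 neuron markers 3 of 6 higher, the last summing to 194 to 2310 CPM in D1_CC and 117 to 530 in D1_SC.

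For a challenge after cocaine history, D1 CC minus CS, 1 of the 9 genes was called, Gadd45b, which was higher. Of all genes 8.31% were called, 8.28% higher and 0.0292% lower, so 1 of 9 is near the share of all genes. Gadd45b ran from 1.82 to 11.9 CPM in D1_CC with a median of 3.28, and from 0.723 to 3.25 in D1_CS with a median of 1.90. The groups overlapped from 1.82 to 3.25 CPM, and 9 of 10 CC libraries lay above the CS mean. It averaged 4.74 ± 3.66 CPM in D1_CC and 1.99 ± 0.867 in D1_CS, with a log2 change of 1.75 ± 0.56 (adjusted p = 0.0411). Its counts were small, 27 to 209 in D1_CC and 3 to 56 in D1_CS, over a gene of 2132 bases.

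Among the CC libraries, 2 stood apart for Gadd45b, D1_CC 1 at 11.2 and D1_CC 3 at 11.9 CPM, with the next at 4.57. Their background shares were 16.5% and 4.03%, the lowest of the group, and D1_CC 3 failed the quality rule. Without D1_CC 3 the change of Gadd45b was 1.26 (adjusted p = 0.240) and without D1_CC 1 it was 1.44 (adjusted p = 0.145). It was lost in 9 of 37 such fits. Of 10 alternatives it passed in 2, without the low-count filter and without the libraries on the other side, and it did not pass, among the others, in DESeq2 (1.34, adjusted p = 0.0629), with RLE scaling (1.32, adjusted p = 0.154) or with the share as covariate (0.57, adjusted p = 0.716). Against SS, Gadd45b had 0.76 in CC and -1.0 ± 0.55 in CS, neither called, and D1_SS ran from 0.995 to 6.87 CPM, so CC and CS both overlapped it.

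Some partner genes rose in this comparison too. In D1 CC minus CS 13 of the 48 rose and 0 fell, where 8.28% of all genes rose, with a median log2 change of 0.48 against -0.09 for all genes. They included Pcna (1.97 ± 0.49), the sliding clamp to which Dnmt1 binds, the repair endonuclease gene Apex1 (1.84), Gadd45g (1.55), which is a relative of Gadd45b, and Mbd3 (1.91) with Zbtb33 (1.91) among the readers. Mat2b (1.52) and Mat2a (1.49), which make the methyl donor S-adenosylmethionine, Cxxc1 (1.14) and the NuRD subunits Rbbp7 (1.76), Chd4 (1.64), Rbbp4 (1.20) and Mta2 (1.14) rose as well. None passed without the failing libraries, without D1_CC 1 or without D1_CC 3. Without D1_CS 3, 22 of the 48 passed. Beside them, 4 of 6 D1 neuron markers (152 to 1775 CPM summed in D1_CC, 182 to 416 in D1_CS) and 3 of 6 D2 neuron markers (194 to 2310 CPM in D1_CC, 134 to 1006 in D1_CS) were higher. Their part in the rises was not tested.

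Whether history changed the challenge response was tested as an interaction, (CC minus CS) minus (SC minus SS). In D1 none of the 9 passed (0.0% of all genes; 6936 genes and 2 of the 9 at an unadjusted p under 0.05; limma 0 of 9). DESeq2 called 2 of the 9, Mbd2 and Tet3, where it called 9.08% of the genes with an adjusted p (1352 higher and 1623 lower). Mbd2 was nearest at -1.30 ± 0.42 (adjusted p = 0.0768), and it passed with RLE scaling (-1.29, adjusted p = 0.0398), which called 3.16% of all genes, and in DESeq2 (-1.28, adjusted p = 0.0106). Dnmt3a stood at -0.92 ± 0.42 (adjusted p = 0.224). In D2 none passed (0.0% of all genes; 2146 genes and 1 of the 9 at an unadjusted p under 0.05; DESeq2 and limma 0 of 9), with Dnmt3a at -0.95 ± 0.48 (adjusted p = 0.833) and Tet3 at -0.70 ± 0.35 (adjusted p = 0.833). D2 CC minus CS (0.252% of all genes called; 0 of the 9 at an unadjusted p under 0.05) and D2 CC minus SC (0.0%; 2 of the 9) called none of the 9 either, in edgeR, DESeq2 or limma.

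No difference between D1 and D2 nuclei was called in these genes at baseline. For D1 minus D2 in SS 0.0255% of genes passed (0.0127% higher and 0.0127% lower) and none of the 9 did (0 of the 9 at an unadjusted p under 0.05; DESeq2 and limma 0 of 9). Mbd2 averaged 69.5 ± 8.15 CPM in D1_SS and 83.9 ± 23.0 in D2_SS (-0.50 ± 0.33), Dnmt3a 149 ± 31.9 CPM in D1_SS and 152 ± 63.6 in D2_SS (-0.32 ± 0.34), and Gadd45b 3.81 ± 2.01 CPM in D1_SS and 2.45 ± 1.19 in D2_SS (0.57 ± 0.49). The remaining 6 had changes between -0.30 and 0.20, and all 9 overlapped. The differences of the CS change (0.0892% of genes called; 1 of the 9 at an unadjusted p under 0.05) and of the CC change (0.0%; 0 of the 9) between lines called none of the 9 in edgeR, DESeq2 or limma. Gadd45b had the largest difference in the CS change, -1.62 ± 0.75 (adjusted p = 0.829).

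Across libraries 6 of the 9 genes moved together. Over the 58 libraries that passed the quality rule, the TMM-scaled log2 CPM of Dnmt3a had a Pearson correlation of 0.947 with Mbd2, 0.942 with Tet3, 0.882 with Tet2 and 0.871 with Mbd1, and Tet2 one of 0.930 with Tet3. Dnmt1 was somewhat further away, at 0.699 with Dnmt3a and 0.810 with Mbd1. Dnmt3b had -0.661 and Tet1 -0.456 with Dnmt3a, and Gadd45b stood apart at 0.0447. All points share library, depth and background, and the values describe these libraries.

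The genes whose profile over the same 58 libraries was most like each member were drawn from 17104 genes. For Dnmt3a they were Jakmip1 (r = 0.990), Dlgap4 and Phc2, for Mbd2 Scaf8 (0.989), Asxl2 and Tnik, for Tet2 Epc1 (0.989), Stxbp5 and Atp8a1, for Tet3 Iqsec1 (0.974), Lncpint and Ccdc187, and for Mbd1 Phf24 (0.983), Rufy2 and Rab3gap1. Dnmt1 was nearest to Dtx1 (0.924) and Gadd45b to Zfp503 (0.862). Tet1 had no close neighbour, with Sh3yl1 first at 0.772. Dnmt3b was nearest to Treml4 (0.973), Cdh3 and Ccl1.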

How the data were processed

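Per the labels' protocols, RNA from the sorted nuclei went through a Direct-zol microprep kit and a SMARTer stranded kit of the Pico Input version. The authors deposited 1 table of counts and 1 of FPKM, each with 55401 identifiers and 75 libraries. The count values deposited by the authors were whole numbers. The FPKM values deposited by the authors divide the count by the library total and by the full gene span of GENCODE M21, within 0.5 bases for 54743 of 55062 identifiers compared. featureCounts, DESeq2 and build mm10 are named in the submitters' processing notes, per the labels, with versions, aligner and strand setting not given in the sources used here. All tests used the counts, and FPKM only gave lengths and levels.

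The main test was the quasi-likelihood test of edgeR 4.0.16 under R 4.3.3 (TMM scaling, filterByExpr by group, Benjamini-Hochberg adjustment over all genes, threshold 0.05, two-sided). The 4 groups of a line were fitted together (37721 genes in D1, 36090 in D2), and all 75 libraries for comparisons across lines (39250 genes), 16 comparisons in all. The SE of a log2 change comes from the change and its test statistic. Alternatives were DESeq2 1.42.0, RLE scaling, no low-count filter, leaving out libraries that failed the quality rule or lay on the other line's side, background subtraction, the background share as covariate, limma 3.58.1 with library weights, a replicate block, and each library left out. A stricter quality rule, with the correlation taken over genes of 5 counts, was added after the data were seen. A library failed the quality rule with a total under the line's median divided by 3, with too few genes of 10 counts or too low a correlation (4 scaled median absolute deviations), or with a receptor ratio of the other line. Background was the counts per base over silent receptor genes. Correlations used 100000 permutations, and promoters and sequences are RefSeq's. The edgeR test was run on simulated data for D1 SC minus SS only, with the same dispersion for every gene and no differences in background. The other fits and comparisons were not simulated. Named were the 9 genes, up to 4 called genes per partner list and comparison, fixed markers, and the 3 most similar genes, leaving out symbols of predicted genes. 1 gene of the partner lists is not reported here and is in none of their counts. The 9 genes, the lists and the tests were chosen with earlier results of these data known.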

Additional observations from a re-analysis of the deposited data

Results flagged for a closer look

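In each of 72 sets of values (9 genes by 8 groups), the highest and the lowest library were compared with the rest of their group by Dixon's test at the 95% level. A library stood apart in 14 of them, where chance alone flags about 1 in 20. Most came from 2 libraries of low background. D1_CS 3 (background share 10.1%) held 279 CPM of Dnmt3a (next library 138), 142.9 of Mbd2 (next 68.6) and 39.69 of Mbd1 (next 24.4), the highest of its group, and 23.52 of Dnmt1 (next 39.3) and 33.55 of Tet1 (next 73.0), the lowest. D2_SS 9 (background share 5.29%) held the highest Dnmt3a of its group at 312 CPM (next 187), Mbd2 at 138.4 (next 100.1) and Mbd1 at 46.14 (next 32.9), and the lowest Tet1 at 24.27 (next 51.9). The rest came from shallow libraries. D2_CC 10, with 19825 counts in total, had 0.0 CPM of Dnmt1 and 0.0 of Mbd2, and D2_CS 9, with 19980, had 150.2 CPM of Tet3 from 3 counts. D2_SC 2 held 38.22 CPM of Dnmt3b (78 counts, next library 17.3) and D2_CS 3 held 10.36 CPM of Gadd45b (25 counts, next library 4.44).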

How the results depend on the processing

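Of the 9 genes, D1 SC minus SS called 4. Under the alternatives it called 5 in DESeq2, limma and without the libraries on the other side (Mbd1 added), the same 4 with RLE and without failing libraries, 3 without the low-count filter and with the replicate block (Tet2 lost), 1 with the background subtracted, 0 with the background share as covariate, 0 with the stricter quality rule, and 1 to 5 with 1 library left out. D1 CC minus SC called 2 genes. It called 4 in DESeq2, 6 in limma with library weights, 1 without the low-count filter (Mbd2), 3 with RLE, 1 without failing libraries (Tet3, with Mbd2 and Dnmt3a both lost), and Mbd2 alone without the libraries on the other side, with the background subtracted and with the replicate block (1 each), 0 with the covariate, 0 with the stricter quality rule, and 0 to 4 with 1 library left out. D1 CC minus CS called 1 gene. It called 0 in DESeq2, RLE, limma, both quality rules, background subtraction, covariate and replicate block, and 0 to 3 with 1 library left out (3 without D1_CS 3). The D1 interaction called 0, against 2 in DESeq2, 1 with RLE and 0 to 1 with 1 library left out. Limma also called 6 in D1 CS minus SS, 2 in D2 SC minus SS, 1 in D2 CS minus SS and 1 in D2 CC minus SS. The remaining comparisons called 0 under every alternative run, and the causes were not tested. Of the partner genes, D1 SC minus SS called 12, and 4 without failing libraries, 0 with the stricter rule, 1 with the background subtracted, 0 with the covariate, 4 in limma, 7 with the replicate block and 2 to 16 with 1 library left out. D1 CC minus CS called 13, and 1 with RLE, 0 under both quality rules, 0 with the background subtracted, 0 with the covariate and 0 to 22 with 1 library left out. D1 CC minus SC called 10, and 3 without failing libraries, 0 with the stricter rule, 4 without the other-side libraries, 6 with the background subtracted, 21 with the covariate, 25 in limma, 4 with the replicate block and 2 to 13 with 1 library left out. No called value changed sign. Of 1316 values not called, 257 changed sign under an alternative and 24 became called, 15 of them in limma. Among these 24, 4 were called with the opposite sign to the main fit. Replicate numbers gave no clear pairing of the libraries. Deviations correlated above 0.1 in 19 of 52 same-number pairs and 196 of 460 other pairs in D1. In D2 they did so in 22 of 55 same-number pairs and 175 of 486 other pairs. The median correlation was -0.035 against 0.020 in D1 and 0.006 against -0.008 in D2. The replicate block is given for completeness. Genome-wide calls in D1 SC minus SS ran from 459 to 10348 with 1 library left out. Shallow libraries limit Gadd45b and Dnmt3b, and intervals from counts cover counting error only.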
